A study of Mus musculus with 14 samples.

Results

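The 10 chemokine genes Ccl2, Ccl3, Ccl4, Ccl5, Ccl19, Cxcl9, Cxcl10, Cxcl12, Cxcl13 and Cxcl16 were measured in the spleen cells of immunized mice. They were found on the array through the RefSeq accession that each probe carries, and 10 of 10 genes matched, with 13 probes among the 56605 on the array. In the fit over all genes they were 10 of 24908 genes. The series held 14 arrays, 7 of WT mice and 7 of Sting gt/gt mice, all of the C57BL/6 strain and aged 10 to 14 weeks. Every mouse of both groups had received chicken collagen type II (CII) in complete Freund's adjuvant (CFA) into the skin, and the spleen was taken 2 weeks later, so no array came from an unimmunized mouse. Sting gt/gt mice are homozygous for golden ticket, a chemically induced point mutation of the gene for STING that leaves no detectable STING protein. By the study's methods the WT stock was purchased and the Sting gt/gt stock came from another laboratory, with mice housed in 1 facility, so genotype and origin of the stock cannot be told apart. The label calls the sample spleen, and the study's methods describe cells pressed from the organ with the red blood cells lysed.

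Chemokines are small secreted proteins that guide leukocytes along a gradient through G protein-coupled receptors. In the spleen, stromal cells make the homeostatic chemokines that keep B cells, T cells and precursors in their places. Activated T cells, NK cells and phagocytes make the inflammatory ones, and interferons are strong inducers of the ligands of Cxcr3. STING is the adaptor of the cGAS pathway, which senses DNA in the cytosol and turns on type I interferon and NF-kB target genes, some chemokines among them. The comparison asked how the loss of STING bears on splenic gene expression early in collagen-induced arthritis.

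RefSeq's promoter table for GRCm38.p6 held 6 of the 10 genes, each as 250 bases before the start of transcription and 50 after it. Those of Cxcl9 with Cxcl10 and of Ccl3 with Cxcl12 are shown because their correlations between arrays are described further on, where the former pair passed the test and the latter did not. Capitals mark matches to 5 motifs searched on both strands. The core of the interferon-stimulated response element (ISRE) was searched as GAAANNGAA, a form of the NF-kB site as GGGANTTTC and GAS, the site of the STAT factors, as TTCNNNGAA. The AP-1 site was searched as TGANTCA, and the motif of the core promoter that TBP binds, named the TATA box, as TATAAA.
Cxcl9, GRCm38.p6 chr5:92328030-92328329, minus strand: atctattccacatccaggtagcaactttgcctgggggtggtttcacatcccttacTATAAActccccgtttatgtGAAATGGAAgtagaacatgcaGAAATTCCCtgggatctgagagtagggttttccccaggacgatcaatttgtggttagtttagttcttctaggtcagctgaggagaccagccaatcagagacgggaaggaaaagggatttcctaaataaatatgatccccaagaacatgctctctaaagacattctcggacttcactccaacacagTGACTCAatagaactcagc
Cxcl10, GRCm38.p6 chr5:92348840-92349139, minus strand: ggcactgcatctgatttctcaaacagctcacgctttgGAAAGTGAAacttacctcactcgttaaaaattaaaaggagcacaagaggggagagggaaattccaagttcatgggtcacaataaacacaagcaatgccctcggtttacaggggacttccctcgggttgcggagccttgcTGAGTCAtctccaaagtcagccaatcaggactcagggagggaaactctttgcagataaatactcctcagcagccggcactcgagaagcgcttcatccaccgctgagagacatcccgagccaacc
Ccl3, GRCm38.p6 chr11:83649329-83649628, minus strand: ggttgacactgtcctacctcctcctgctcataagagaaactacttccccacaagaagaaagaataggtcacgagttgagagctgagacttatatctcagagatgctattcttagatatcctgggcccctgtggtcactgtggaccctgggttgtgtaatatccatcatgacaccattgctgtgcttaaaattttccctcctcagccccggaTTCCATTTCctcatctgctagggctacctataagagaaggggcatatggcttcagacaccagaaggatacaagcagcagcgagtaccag
Cxcl12, GRCm38.p6 chr6:117168285-117168584, plus strand: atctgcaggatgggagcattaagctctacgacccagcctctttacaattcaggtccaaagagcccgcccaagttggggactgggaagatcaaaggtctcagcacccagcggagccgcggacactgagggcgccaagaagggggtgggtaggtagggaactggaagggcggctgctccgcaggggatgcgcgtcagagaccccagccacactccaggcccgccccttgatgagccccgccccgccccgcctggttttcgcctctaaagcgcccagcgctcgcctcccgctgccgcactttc

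Within these windows the ISRE letters were found 175 bases before the start of Cxcl9, 213 before that of Cxcl10 and 39 before that of Ccl3, and none of the 5 motifs was found in the Cxcl12 window. Of all 32851 promoters of this length, 8.56% held the ISRE letters, against 4 of the 6 chemokine promoters (the fourth was Ccl19). The AP-1 letters were in 7.81% of all promoters and in those of Cxcl9, 31 bases after the start, and Cxcl10, 74 bases before it. The 1 form of NF-kB letters searched was in 1.11% of all promoters and, among the 6, in Cxcl9 alone. Other forms of the NF-kB site were not searched, so whether the other promoters hold one was not tested. The TATA box letters were in 13.6% of all promoters and in those of Cxcl9, 195 bases before the start, and Cxcl13, 46 bases before it. The GAS letters were in 8.30% of all promoters and in 0 of the 6. These are matches of letters, not measured binding sites.

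All 182 readings of the 13 chemokine probes were well above background and none was saturated. Levels below are log2 processed signal with the 75th percentile of the same array set to 0, and levels of single probes are not compared with each other. Summed levels of gene lists, given further on, are on the linear scale instead. They add each gene's signal as a multiple of that percentile, so the brightest genes weigh most. The arrays correlated with each other at r = 0.962 to 0.993 over 24897 genes, and replicates 1 to 3 lay apart from replicates 4 to 7, which were scanned on another day, on their leading principal component (43.0% of the variance). The transcript of the STING gene itself ranged from 2.35 to 2.85 in WT and from 2.45 to 2.77 in Sting gt/gt. A point mutation need not change the level of a transcript, so this checks no label. Defining markers of B cells (15 of 15 tested genes) and T cells (18 of 18) were well above background on all 14 arrays. Each array had its own replicate number, and a legend of the study counts as many mice in a group as there were arrays, although the labels do not tie an array to a mouse.

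No chemokine passed the test between Sting gt/gt and WT spleen cells. With all 14 arrays and no block, the differences lay between -0.08 and 0.20 on the log2 scale, and 0 of 10 genes passed an unadjusted p under 0.05 in limma, which 3.48% of all genes did (868 of 24908). Of those 868 genes 53.5% were higher in Sting gt/gt. The share was 30.6% of the 818 genes that passed with each array centred on its median. It was 19.5% of the 763 that passed with no scaling. The adjusted p was 0.9998 for each of the 10, and 0.00401% of all genes (1 gene) passed after adjustment. The two-sided exact permutation test over the 3432 ways to part the arrays gave p-values from 0.300 for Ccl3 to 0.992 for Ccl5. Groups did not overlap for 0.0442% of all genes and for 0 of the 10 chemokines.

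**Figure D1:**
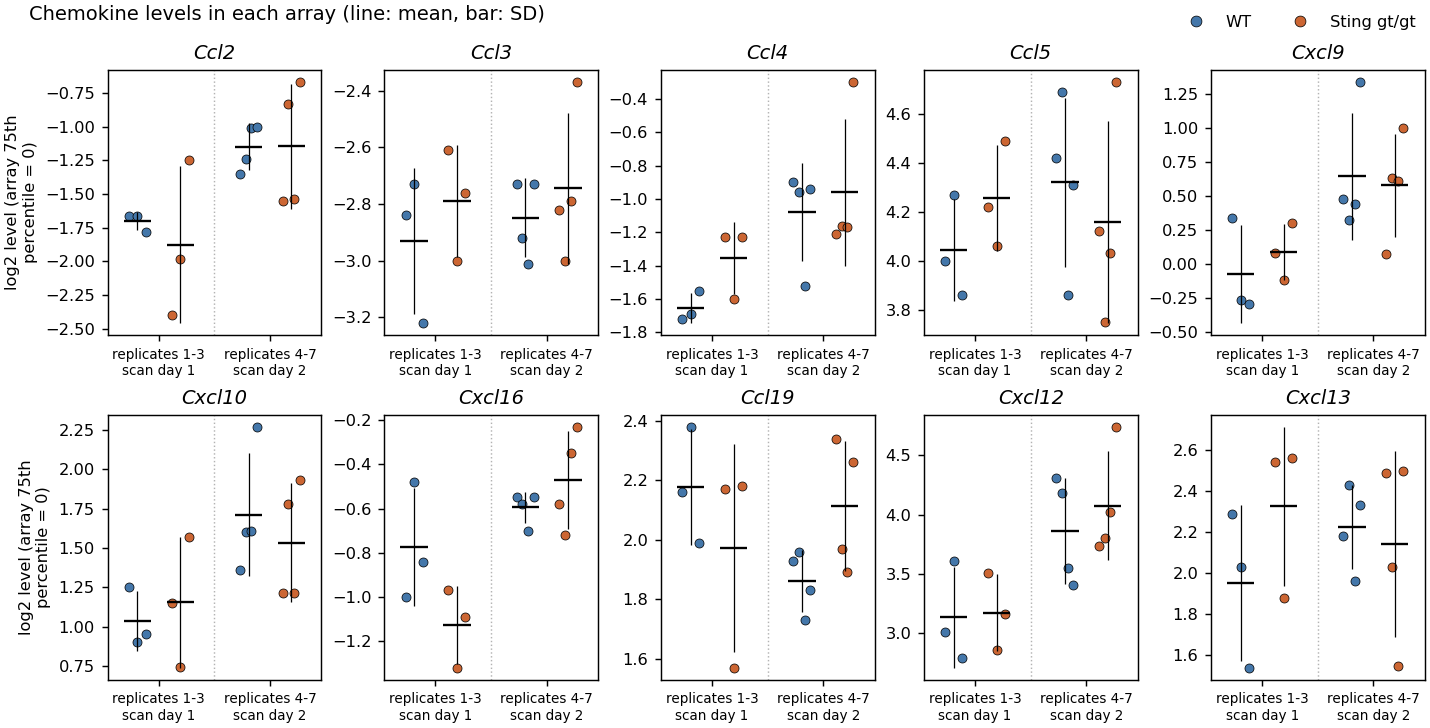
Levels of the 10 chemokines in the 14 arrays, as log2 processed signal with the array's 75th percentile at 0. Points are arrays (blue WT, orange Sting gt/gt), lines are means and bars SDs, and each panel has replicates 1 to 3 on the left and replicates 4 to 7 on the right. WT and Sting gt/gt points overlap in every panel, and Ccl2, Ccl4, Cxcl9, Cxcl10, Cxcl12 and Cxcl16 lie higher on the right.

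Among the inflammatory CC chemokines, Ccl2, which draws monocytes through Ccr2, had its lowest, median and highest levels in WT at -1.78, -1.35 and -1.0. In Sting gt/gt these were -2.40, -1.54 and -0.67. The Sting gt/gt arrays thus spread on both sides of all WT arrays, with an SD of 0.61 against 0.32. The mean difference of Ccl2 was -0.08 (SE 0.24), and its 95% interval of -0.59 to 0.44 spans a fold of 0.664 to 1.36. When the slide entered the fit, the Ccl2 difference was -0.51 as a fixed term and -0.28 as a random one, and it passed in neither.

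Ccl3, Ccl4 and Ccl5 are made by T cells, NK cells and macrophages. Ccl3 ranged from -3.22 to -2.73 in WT, with a median of -2.84, while Sting gt/gt arrays had -3.0 at the lowest, -2.79 at the median and -2.37 at the highest. Its difference of 0.12 (SE 0.12) had a 95% interval of -0.13 to 0.37. For Ccl4 the WT arrays began at -1.72, had a median of -1.52 and ended at -0.90, and the Sting gt/gt arrays at -1.60, -1.21 and -0.30. Replicate 7 of Sting gt/gt was above all other arrays. The Ccl4 difference of 0.20 (SE 0.19) was 0.06 without that array, and on the other Ccl4 probe it was 0.09. Ccl5 lay at 3.86 to 4.69 in WT and 3.75 to 4.73 in Sting gt/gt. Its means of 4.20 ± 0.31 and 4.20 ± 0.32 (SD, n = 7 each) differed by less than 0.01, with a 95% interval of -0.35 to 0.35.

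The interferon-induced ligands of Cxcr3, which draw activated T cells and NK cells, did not pass either. Cxcl9 had a lowest level of -0.30, a median of 0.34 and a highest of 1.34 in WT, and -0.12, 0.30 and 1.0 in Sting gt/gt. For Cxcl10 the values were 0.90, 1.36 and 2.27 in WT, and 0.74, 1.21 and 1.93 in Sting gt/gt. WT replicate 7 was the highest array for both genes, and the groups overlapped over most of their range. The difference was 0.03 (SE 0.24) for Cxcl9 and -0.05 (SE 0.22) for Cxcl10, with 95% intervals of -0.47 to 0.54 and -0.52 to 0.42. As folds, these intervals reached up to 1.45 for Cxcl9 and down to 0.699 for Cxcl10.

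Cxcl16, the transmembrane ligand of Cxcr6 on macrophages and dendritic cells, lay between -1.0 and -0.48 in WT and between -1.32 and -0.23 in Sting gt/gt, with medians of -0.58 and -0.72. Its main probe differed by -0.08 (SE 0.16) and its other probe by 0.10 (SE 0.15). The sign of the Cxcl16 difference thus depended on the probe, and neither passed. The probes of Cxcl16 correlated at r = 0.58 over 14 arrays, against 0.93 for those of Ccl4 and 0.96 for those of Cxcl12. Over all probes, 3.43% passed for genotype, and 0 of the 13 chemokine probes did.

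Of the homeostatic chemokines, Ccl19 guides Ccr7-bearing T cells and dendritic cells into the T cell zone. Its WT levels were 1.73 at the lowest, 1.96 at the median and 2.38 at the highest, against 1.57, 2.17 and 2.34 in Sting gt/gt, a difference of 0.06 (SE 0.13). The mouse genome carries pseudogene copies of Ccl19, which the probe may also read. Cxcl12, the stromal ligand of Cxcr4, had 2.79, 3.55 and 4.31 as lowest, median and highest level in WT, and 2.86, 3.74 and 4.74 in Sting gt/gt. Its difference of 0.14 (SE 0.29) had the widest 95% interval of the 10, -0.47 to 0.75, and fell to -0.03 without replicate 7 of Sting gt/gt. A probe for another Cxcl12 transcript gave 0.28 (SE 0.28). Cxcl13, which draws Cxcr5-bearing B cells into follicles, lay between 1.54 and 2.43 in WT and between 1.55 and 2.56 in Sting gt/gt, and its medians were 2.18 and 2.49. The difference was 0.11 (SE 0.18), with a 95% interval of -0.28 to 0.50.

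**Figure D2:**
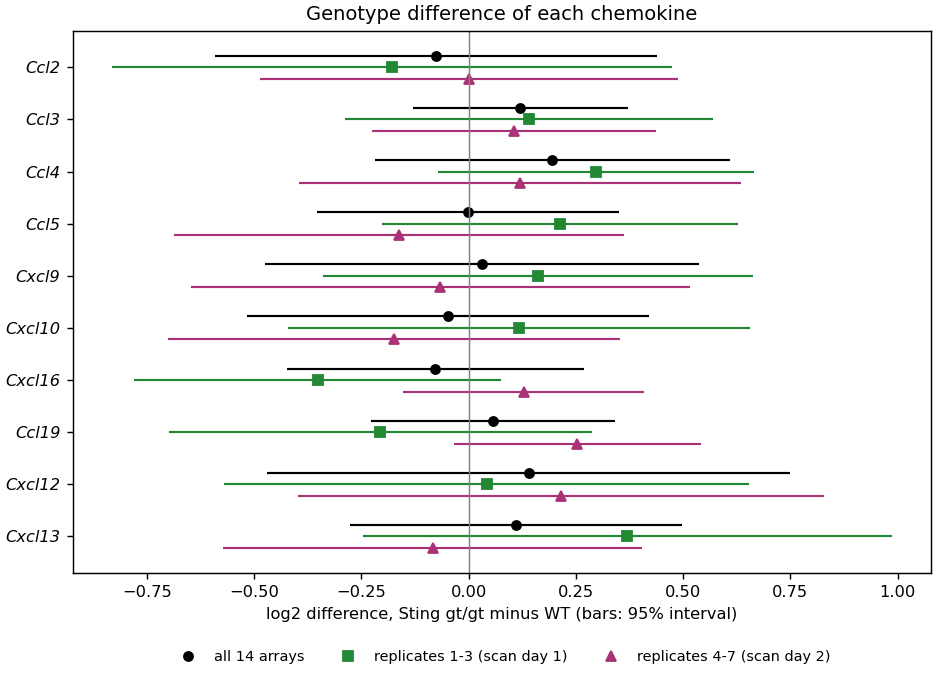
Difference of each chemokine, Sting gt/gt minus WT, in log2 units with 95% intervals from limma, for all 14 arrays (black), replicates 1 to 3 (green) and replicates 4 to 7 (purple). All 30 intervals cross 0, and the green and purple points lie on opposite sides of it for Ccl5, Ccl19, Cxcl9, Cxcl10, Cxcl13 and Cxcl16, while the purple point of Ccl2 is at 0.0011.

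Other genes of the chemokine system likewise gave no call by genotype. Of 30 other ligands listed, 16 were tested and 0 passed, with 14 of them higher in Sting gt/gt, a median of 0.11 and a range of -0.75 to 0.57. Of 23 receptors, 20 were tested and 0 passed, with a median of 0.08. The median over all genes was 0.02. Interferon-gamma response genes also gave 0 calls in 21 tested genes, with a median of -0.02. In bulk cells, fewer cells of a type and less RNA per cell cannot be told apart, so marker lists were read beside the chemokines. B cell markers were lower in Sting gt/gt for 14 of 15 genes, and only the B lineage factor Ebf1 passed (-0.34, SE 0.14, limma adjusted p = 0.9998). Their summed level on the linear scale was 133 to 223 in WT and 135 to 191 in Sting gt/gt. Of 14 erythroid markers tested, 11 were lower in Sting gt/gt, with a median of -0.36. As lower, 3 of the 14 passed the unadjusted threshold, against 404 of 24908 over all genes. The transferrin receptor Tfrc was lower (-0.52, limma adjusted p = 0.9998), and the summed level of the list was 888 to 1501 in WT and 868 to 1492 in Sting gt/gt. Stromal, macrophage, T cell, NK cell, dendritic cell and neutrophil markers gave 0 calls. NK cell and neutrophil markers were each higher in Sting gt/gt for 12 of 14 genes, with medians of 0.09 and 0.18. Stromal and macrophage markers were each higher for 12 of 20, T cell markers for 8 of 18 and dendritic cell markers for 7 of 14. Over all genes 13565 of 24908 were higher. Of 20 immediate early genes, which respond to handling as well as to activation, Ier3 was higher (0.28) and Nr4a2 lower (-0.26). Their part in the chemokine levels was not tested.

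Differences between replicates 1 to 3 and replicates 4 to 7 reached 0.81 on the log2 scale, and those between genotypes 0.20. The first set was scanned on 1 day and the second on another, each with equal numbers of both genotypes (3 and 3, then 4 and 4). In a fit with genotype in the model, 6 of the 10 were higher on scan day 2 at an adjusted p under 0.05 and 0 were lower. Over all genes 38.8% differed between the days (9659), 17.1% were higher on day 2 (4269) and 21.6% lower (5390). Of the genes that differed, 44.2% were higher on day 2. The share was 69.9% of the 11215 genes that differed with median centring and 55.1% of the 10122 with quantile normalization. Median centring moved the median difference of all genes from -0.01 to 0.17, and 6 of the 10 passed there too. Whatever else changed between the sets, such as mice or RNA preparation, cannot be told apart from the scan. No chemokine was without overlap between the days, while 15.7% of all genes were.

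Cxcl12 had the largest shift of the 10. Its lowest, median and highest levels were 2.79, 3.09 and 3.61 on day 1 and 3.41, 3.91 and 4.74 on day 2. It rose by 0.81 (SE 0.20, adjusted p = 0.00584 in limma), a fold of 1.75, and its other probe rose by 0.92 (adjusted p = 0.000323 over all probes, of which 39.0% passed). Ccl2 went from a median of -1.72 to -1.13, a difference of 0.64 (SE 0.18, adjusted p = 0.0123). The Cxcr3 ligands rose together. Cxcl9 moved from a median of -0.02 to 0.55, a difference of 0.61 (SE 0.18, adjusted p = 0.0171), and Cxcl10 from 1.05 to 1.60, a difference of 0.53 (SE 0.18, adjusted p = 0.0291). Ccl4 differed by 0.48 (SE 0.15, adjusted p = 0.0217), although its other probe did not pass (0.31, adjusted p = 0.161). Cxcl16 differed by 0.42 (SE 0.12, adjusted p = 0.0144), and by 0.36 on its other probe (adjusted p = 0.0342).

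The remaining chemokines did not pass. Ccl3 differed by 0.07, Ccl5 by 0.09, Ccl19 by -0.08 and Cxcl13 by 0.05, with standard errors of 0.11 to 0.18. Their 95% intervals reached from -0.37 at the low end (Ccl19) to 0.44 at the high end (Ccl5 and Cxcl13). The call of Cxcl10 was near the threshold. With each array left out in turn its difference was 0.43 to 0.64. Without WT replicate 2 or 3, or Sting gt/gt replicate 2, 5 or 7, its adjusted p was 0.0514 to 0.0761, and without Sting gt/gt replicate 2 that of Ccl4 was 0.0554. With slide as a random block all 6 still passed, and Cxcl10 had an adjusted p of 0.0401.

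**Figure D3:**
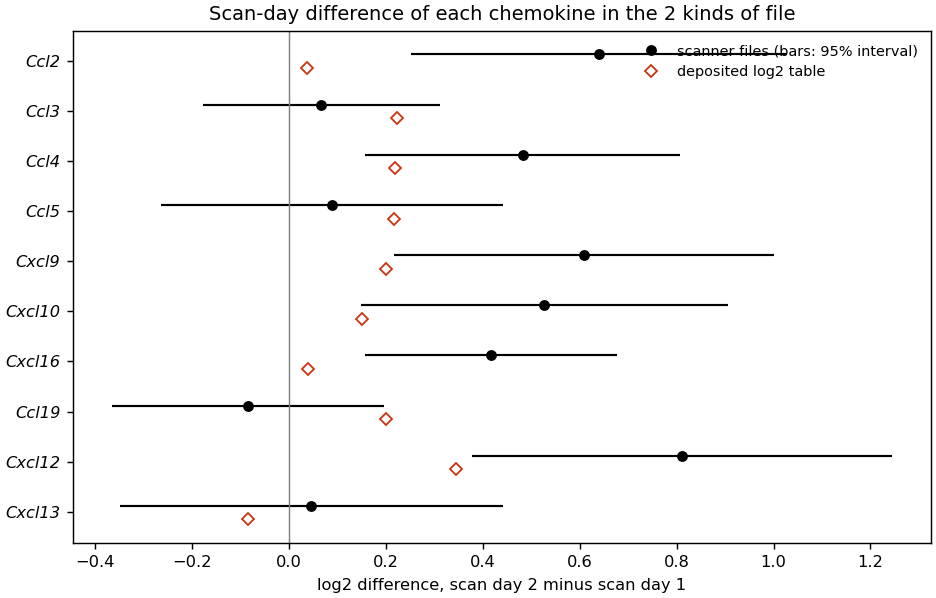
Difference of each chemokine between scan days, day 2 minus day 1, in log2 units. Black points with 95% intervals come from the scanner files and open red diamonds from the deposited log2 table. 6 black intervals lie above 0, and every diamond of these 6 lies closer to 0 than its black point.

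For the 6 called chemokines the shift was smaller in the deposited log2 table, and for Ccl3, Ccl5 and Ccl19 it was larger. There the differences of the 6 called chemokines were 0.04 for Ccl2 and Cxcl16, 0.15 for Cxcl10, 0.20 for Cxcl9, 0.22 for Ccl4 and 0.34 for Cxcl12, and none passed. Ccl3 and Ccl5 were at 0.22, Ccl19 at 0.20 and Cxcl13 at -0.09 there. The median absolute difference between scan days over all genes was 0.27 in the scanner files and 0.07 in the table, where no gene passed (0 in limma after adjustment). Over the 14 arrays, the 2 kinds of file correlated at 0.75 for Ccl2 and 0.76 for Cxcl16, at 0.81 for Ccl19, at 0.89 to 0.93 for Ccl3, Ccl4, Cxcl9, Cxcl10 and Cxcl12, and at 0.98 for Ccl5 and 0.97 for Cxcl13. The genotype differences hardly moved between the sources, with Ccl4 at 0.20 in both and Cxcl12 at 0.14 and 0.13. How the table was normalized is not given in the sources used here.

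Other genes of the chemokine system and of the marker lists are given here beside the shares of all genes, 17.1% higher and 21.6% lower on day 2, and a count near these shares is no result about a list. Of the other ligands, 4 of 16 were higher on day 2 and 0 lower, among them the monocyte chemoattractant Ccl7 (1.15), Ccl6 (0.37) and the platelet chemokine Ppbp (0.31). Of the receptors, 7 of 20 were higher and 2 lower. The atypical Cxcl12 receptor Ackr3 rose by 0.75 and the Cxcl16 receptor Cxcr6 by 0.57. Interferon-gamma response genes were higher for 12 of 21, Igtp by 0.69 and Cd274, which encodes PD-L1, by 0.66, while Nos2 fell by 1.1. NK and cytotoxic markers were higher for 10 of 14 and lower for Prf1 alone, with a summed level of 21.5 to 34.2 on day 1 and 26.3 to 50.8 on day 2. Stromal markers were higher for 6 of 20 and lower for 2, with summed levels of 244 to 331 and 241 to 298. Neutrophil markers were lower for 4 of 14, among them S100a8, which fell by 1.11, and their sum was 1421 to 2121 on day 1 and 876 to 1529 on day 2. Erythroid markers were lower for 6 of 14. Dendritic cell markers were higher for 7 of 14, while the plasmacytoid marker Siglech fell by 2.21. The summed level of the list, in which the brightest genes weigh most, was 169 to 212 on day 1 and 71.2 to 89.1 on day 2. B cell (3 of 15 higher, 1 lower), T cell (5 of 18 higher, 2 lower), macrophage (2 of 20 higher, 3 lower) and immediate early genes (6 of 20 higher, 1 lower) moved both ways. The part of these cell types in the chemokine shifts was not tested.

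Within each set of replicates, genotype again gave no call among the chemokines. In replicates 1 to 3, 0 of 10 passed, against 3.86% of all genes. In replicates 4 to 7, 0 of 10 passed, against 23.3% of all genes. There each slide held a single genotype, so slide and genotype cannot be told apart. With scan day as a term over all arrays, 0 of 10 passed, against 7.27% of all genes.

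The genotype difference itself differed between the sets for 18.0% of all genes at an unadjusted p under 0.05 and for 0.767% after adjustment. Among the chemokines only Cxcl16 was in the former group and none in the latter. Cxcl16 was lower in Sting gt/gt by 0.35 on average in replicates 1 to 3 (means of -1.13 and -0.77) and higher by 0.13 in replicates 4 to 7 (means of -0.47 and -0.60). The difference between the sets was 0.48 (SE 0.21, limma adjusted p = 0.255), and the exact permutation of genotypes within sets, over 1400 ways, gave p = 0.0529. Its other probe gave -0.09 with an exact permutation p of 0.773. Ccl19 ran the same way as the main Cxcl16 probe, at -0.21 and 0.25, with an exact permutation p of 0.0843 for the difference.

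Between arrays of the same genotype and set, the chemokines varied unevenly. Cxcl12 had an SD of 0.43, higher than in 88.2% of genes, and Cxcl9, Ccl2, Cxcl13 and Cxcl10 had SDs of 0.36 to 0.38, at the 80th to 83rd percentile. Ccl4 (0.31) and Ccl5 (0.32) were somewhat above the median gene, whose SD was 0.23. Ccl3 and Ccl19 (both 0.22) and Cxcl16 (0.19) were below it. Single arrays carried part of this spread. Replicate 7 of Sting gt/gt was the highest of the 14 arrays for Ccl2, Ccl3, Ccl4, Ccl5, Cxcl12 and Cxcl16, 6 of the 10, and WT replicate 7 for Cxcl9 and Cxcl10. The former also had the highest summed level of NK and cytotoxic markers, 50.8 against at most 37.3 elsewhere. Its sum of immediate early genes was the highest by little, 115.3 against 114.7 in WT replicate 2. Its sums of neutrophil and erythroid markers were the lowest, 876 against at least 979 elsewhere and 868 against at least 888. WT replicate 7 had the highest sum of interferon-gamma response genes, 207 against at most 189. It was also highest for B cell markers, 223 against at most 204, and chemokine receptors, 58.9 against at most 55.4. Whether these lists bear on the levels of the chemokines was not tested.

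With the scan-day means removed, 39 of the 45 pairs of chemokines correlated above 0 over 14 arrays, with a median r of 0.36. The pairs share genes and are not independent. No share for other genes stands beside this count, so it is no result about chemokines as a group. The values of a pair came from the same arrays and shared their scaling. Cxcl9 and Cxcl10, neighbouring genes on chromosome 5, had the highest correlation, r = 0.83 (permutation p = 0.00058, adjusted over the 45 pairs 0.0261) and rho = 0.77 (permutation p = 0.00333, adjusted 0.0589). It was 0.82 within the 6 arrays of day 1 and 0.84 within the 8 of day 2. Without WT replicate 7 and Sting gt/gt replicate 4, the most distant arrays for Cxcl9, r was 0.69. This was the only pair to pass after adjustment on r, and none passed on rho.

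**Figure D4:**
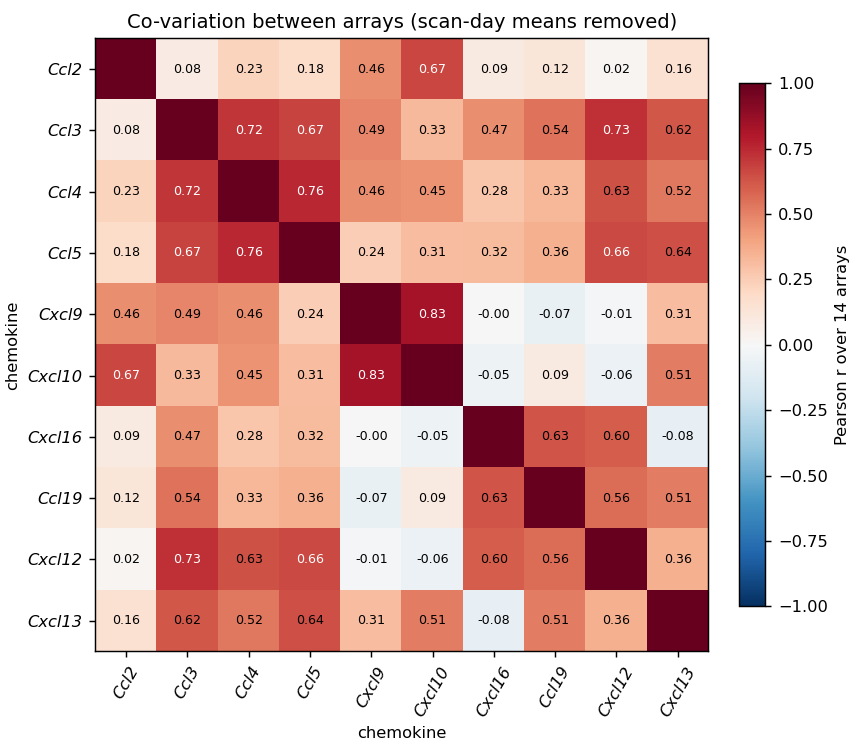
Pearson correlation of each pair of chemokines over the 14 arrays, after the mean of each scan day was removed. Red is positive and blue negative, and the highest value off the diagonal is 0.83 for Cxcl9 with Cxcl10.

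Next came Ccl4 with Ccl5 at r = 0.76 (permutation p = 0.00248, adjusted 0.0552) and rho = 0.69 (permutation p = 0.0108, adjusted 0.0705). The value was 0.59 on day 1 and 0.80 on day 2, and 0.62 without WT replicate 6 and Sting gt/gt replicate 7. Ccl3 and Cxcl12 followed at r = 0.73 (permutation p = 0.00368, adjusted 0.0552) and rho = 0.69 (permutation p = 0.00782, adjusted 0.0705). They gave 0.86 on day 1 and 0.67 on day 2, and 0.54 without WT replicate 3 and Sting gt/gt replicate 7. Cxcl12 and the Cxcr3 ligands had correlations near 0, with r of -0.01 for Cxcl9 and -0.06 for Cxcl10, although all 3 rose between the scan days. The windows printed above for Cxcl9 and Cxcl10 share the ISRE and AP-1 letters, the latter on opposite sides of the start. Those of Ccl3 and Cxcl12 share none of the 5 motifs. Whether these letters bear on the correlations was not tested.

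**Figure D5:**
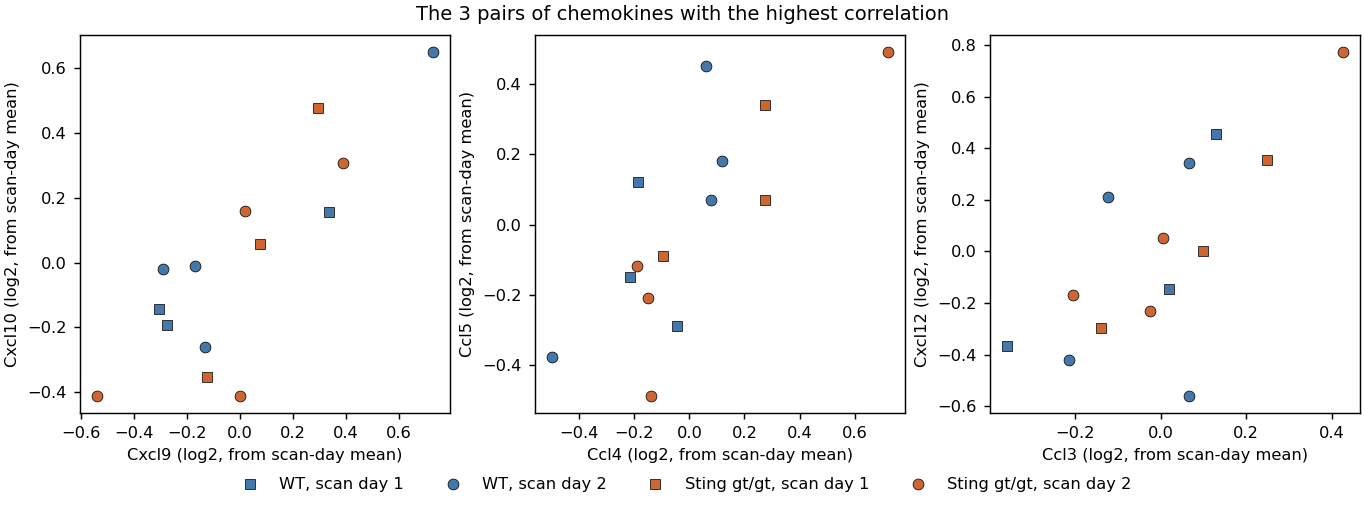
Levels of 3 pairs of chemokines in the 14 arrays, in log2 units from the mean of the array's scan day. Squares are scan day 1, circles scan day 2, blue WT and orange Sting gt/gt. The points rise from lower left to upper right in each panel, and 1 array stands at the upper right end of each.

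The genes most like each chemokine were sought among 14720 genes with a symbol, by Pearson r of the same deviations over 14 arrays. For Cxcl10 these were Gm12250 (0.91) and AW112010 (0.88), and for Cxcl9 Ly6a (0.89), an interferon-inducible surface protein, and Cox6a2 (0.84). Ccl4 was most like Samd3 (0.93) and Kcnh3 (0.92). Ccl3 was most like the NK receptor gene Klra8 (0.89) and Id4 (0.88), and Ccl5 like the NF-kB kinase Map3k14 (0.94) and the interleukin-10 receptor chain Il10rb (0.94). Cxcl12 was followed by Sall2 (0.96) and Shroom2 (0.95), Cxcl13 by the C-type lectin Cd209d (0.88) and the cannabinoid receptor Cnr1 (0.87), and Ccl19 by Robo1 and Myom3 (0.89 and 0.88). For Ccl2 they were Itpka (0.86) and Retnla (0.84), and for Cxcl16 Reep3 (0.95) and Dab2ip (0.91). With so many genes searched over 14 arrays, values of this size are a description only.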

How the data were processed

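Spleen cell RNA of 7 WT and 7 Sting gt/gt mice was labelled with Cy3 and hybridized to 1-colour Agilent arrays. The authors extracted the signals with Agilent Feature Extraction 11.0.1.1, and the deposited files hold an intensity per spot, corrected for background but not scaled between arrays. A deposited log2 table of the same arrays, whose normalization is not given in the sources used here, served as an alternative. Groups and replicate numbers were taken from the labels, and the scan days and 6 slides from the file headers. Each array's log2 processed signal was set against its 75th percentile over 59305 non-control spots. Probes well above background on at least 7 arrays were tested (31766 of 56605), a gene was read from its brightest tested probe, and 58.3% of probes had a symbol.

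Differences were tested with limma 3.58.1 in R 4.3.3 at an unadjusted p under 0.05, as the methods set, with Benjamini-Hochberg adjustment over all genes beside it. The number of arrays limits the precision. Replicate numbers deviated together across the genotypes (r from 0.156 to 0.533) but not once the scan-day means were removed (-0.597 to 0.07), so they pair the samples through scan day. Named were the 10 chemokines with all probes, at most 3 genes a list past the threshold in either comparison, markers and counts, and the 2 genes most like each chemokine. The members and lists were chosen with earlier results of these data known. The fit was tested on simulated data that kept the scan-day shift, with 200 genes changed by 1 log2 unit. With no covariate, 137 of these passed after adjustment, and 2.38% of unchanged genes passed unadjusted. With scan day as a term the values were 173 and 4.96%. Alternatives in scaling, background, filter, probe rule, test, weights, scan day, slide and left-out arrays are in the closing section. Some genes of the lists are not reported here.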

Additional observations from a re-analysis of the deposited data

Results flagged for a closer look

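Among 26 sets of 7 arrays (13 probes in both genotypes), 3 had an array far from the others by Dixon's test at the 95% level, and chance flags about 1 in 20. Replicate 7 of Sting gt/gt lay at -0.30 for the main Ccl4 probe, where the next Sting gt/gt array was at -1.16, and at -0.93 for the other Ccl4 probe, where the next was at -1.64. Replicate 2 of Sting gt/gt lay at -1.69 for the second Cxcl16 probe, and the nearest array at -1.04. The genotype difference of the main Cxcl16 probe differed between the sets of replicates by 0.48 at an unadjusted limma p, which did not hold after adjustment and was -0.09 on the other probe.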

How the results depend on the processing

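No chemokine passed for genotype under any alternative. Of the 180 chemokine differences by genotype under other settings than a left-out array, 164 kept their sign and 16 turned it, all of them without a call. These were, in log2 units, Ccl2 at 0.0011, Cxcl9 at -0.066, Cxcl13 at -0.084 and Cxcl16 at 0.13 in replicates 4 to 7 alone, Ccl5 at 0.21, Ccl19 at -0.21 and Cxcl10 at 0.12 in replicates 1 to 3 alone, Ccl5 at 0.066 and Ccl19 at -0.049 with slide as a random block, and Ccl5 at 0.13 and Ccl19 at -0.24 with slide as a fixed block, which rests on the slides that held both genotypes. Array weights with an intensity trend gave -0.067 for Cxcl9, -0.025 for Cxcl13 and 0.023 for Cxcl16, no scaling -0.023 for Cxcl9, and the mean over probes 0.013 for Cxcl16. With each array left out in turn the range was -0.21 to 0.081 for Ccl2, -0.090 to 0.079 for Ccl5, -0.074 to 0.20 for Cxcl9, -0.14 to 0.092 for Cxcl10, -0.035 to 0.28 for Cxcl12 and -0.16 to 0.018 for Cxcl16. The others kept their sign, at 0.054 to 0.16 for Ccl3, 0.058 to 0.27 for Ccl4, 0.0081 to 0.14 for Ccl19 and 0.015 to 0.22 for Cxcl13. Some differences grew without a change of sign or a call, with slide as a fixed block Ccl2 to -0.51, Cxcl13 to 0.36 and Cxcl16 to -0.34, with slide as a random block Ccl2 to -0.28, Cxcl13 to 0.23 and Cxcl16 to -0.23, and in replicates 1 to 3 alone Cxcl13 to 0.37 and Cxcl16 to -0.35. The number of arrays limits what these data can show.

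The count of genes past the unadjusted threshold, 868, was 1928 in the deposited log2 table, 4625 with array weights and a trend, 1812 with scan day as a term, 445 with slide as a random block and 5805 in replicates 4 to 7 alone. The fit paired by replicate number (replicate block) gave 1416 and changed no chemokine call. Leaving out 1 array gave 496 (without Sting gt/gt replicate 6) to 1967 (without Sting gt/gt replicate 1). The cause was not tested.

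Between scan days, the deposited log2 table gave 0 genes and 0 chemokines, the cause of which was not tested. Cxcl10 did not pass with no scaling (0.56, adjusted p = 0.0608) or with normexp (0.44, adjusted p = 0.0623). Ccl19 was at 0.094 with median centring and 0.20 in the table, and Cxcl13 at -0.085 in the table, -0.030 with normexp and -0.074 to 0.15 with single arrays left out. The fit with slide as a random block for the scan-day difference was chosen after seeing the data.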
